A study of Mus musculus with 4 samples.

Results

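The G1 cyclins, the kinases they activate, the phosphatase CDC25A and the transcription factor E2F1 were followed in mouse embryonic stem cells after loss of FBL (fibrillarin), the methyltransferase that box C/D small nucleolar RNAs guide to ribosomal RNA. The 10 genes were Ccnd1, Ccnd2, Ccnd3, Ccne1, Ccne2, Cdk2, Cdk4, Cdk6, E2f1 and Cdc25a. Each was represented by every array probe whose transcript accession is a RefSeq transcript of that gene, which gave 16 probes for 9 genes, of 41174 probes and 17016 named genes in all. No probe matched a Ccnd1 transcript, so Ccnd1 was not analysed here. The cells carry a tetracycline (Tc) controlled knock-down of FBL. The 2 control samples were grown with Tc (1000 ng/mL) and the 2 knock-down samples without it, in both cases for 2 days on gelatin with leukaemia inhibitory factor (LIF). The labels give neither the construct behind the knock-down nor the number of clones, and they do not say whether replicates came from separate cultures. The p-values thus cover only how far these particular samples differ, and that spread may be technical. The controls carry the same knock-down system, and the presence of Tc differs between the groups together with FBL, so an effect of Tc and one of FBL cannot be told apart.

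D cyclins bind CDK4 or CDK6 and E cyclins bind CDK2. Both kinds of complex phosphorylate the retinoblastoma protein, which releases E2F factors to switch on the genes of DNA replication. CDC25A removes inhibitory phosphates from these kinases, and E2F1 in turn activates the genes of the E cyclins and of CDC25A. Mouse embryonic stem cells have a short G1 phase, keep cyclin E and CDK2 active through most of the cycle and are known for low levels of D cyclins.

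Values are log2 signals from the authors' deposited table, in which 0 is the 75th percentile of the array's signal, so a difference of 1 is a doubling. Each change subtracts the control mean from the knock-down mean and carries the standard error (SE) of the limma fit, with n = 2 per group, and a probe rose or fell where its Benjamini-Hochberg adjusted p lay below 0.05. Between 24497 and 26404 probes were well above background per array. Fbl stood at 8.63 and 8.12 in the controls and at 5.98 and 5.94 in the knock-down samples (log2 change −2.41 ± 0.25, limma adjusted p = 4.44e-04). Of the 25078 probes tested, 936 rose (3.73%) and 620 fell (2.47%), or 6.20% together, and the median change was −0.06. No probe with a log2 change smaller than 0.86 was called. The controls lay further apart than the knock-down samples, with a standard deviation of their difference over probes of 0.51 against 0.31. Control 1, control 2 and knock-down 1 shared a slide and knock-down 2 lay on another.

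Of the 16 member probes, 1 fell and 0 rose in limma. The 1 that fell was a dim probe of Cdk6. It was well above background in the controls only, so it entered the test through the group where it was higher. The counts that follow include it. Over the 15 member probes well above background on all arrays, 13 changes were below 0 and the median was −0.46. Without adjustment, 5 of the 16 had a limma p under 0.05 and a negative change, where 10.6% of all probes did, and 0 had a positive one (9.47%). These 5 were the 3 probes of Ccnd2 and the 2 of Cdk6, with no probe of another member among them. Probes of 1 gene are not separate observations. The change was below 0 for 14 probes (55.9% of all probes) and the median of the 16 was −0.47. For 11 probes both knock-down values lay below both control values, which held for 30.6% of all probes, and for 0 they lay above (20.8%). The members were chosen with earlier results of these data known, so these counts describe them.

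**Figure D1:**
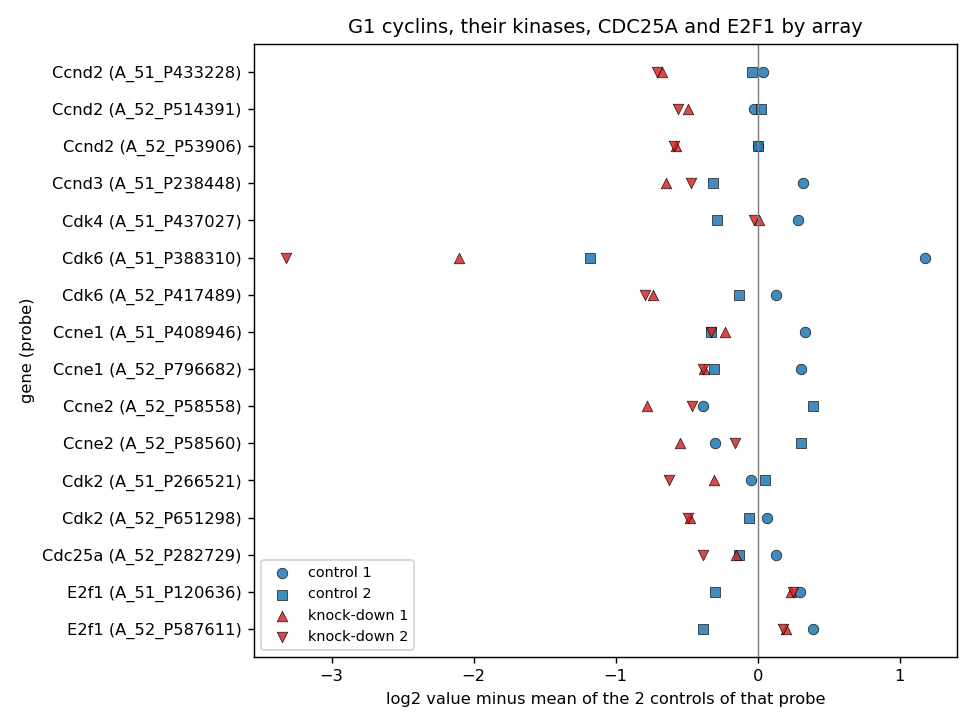
Log2 value of each member probe on each array, minus the mean of the controls of that probe (horizontal axis), with controls in blue and knock-down samples in red. For Ccnd2 the 3 probes show the controls within 0.08 of each other and both knock-down samples lower, while for E2f1 and Cdk4 the knock-down samples lie between the controls.

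Ccnd2 encodes cyclin D2 and was read by 3 probes of 1 transcript (NM_009829). At the first it stood at 0.67 and 0.59 in the controls, against −0.04 and −0.07 after knock-down, a change of −0.69 ± 0.22 (limma adjusted p = 0.107). At the second it stood at 0.59 and 0.64 in the controls, against 0.12 and 0.05 after knock-down, a change of −0.53 ± 0.22 (limma adjusted p = 0.219). At the third it stood at 0.49 in both controls, against −0.09 in both knock-down samples, a change of −0.58 ± 0.22 (limma adjusted p = 0.172). The 3 probes thus gave 1.44-fold to 1.61-fold lower values with no overlap between the groups, and none passed the threshold. The replicates of a group were at most 0.08 apart at these probes, and the SE of the fit is wider than that because limma draws each probe's variance towards that of all probes. The 95% intervals of the changes were −1.18 to −0.20, −1.02 to −0.03 and −1.07 to −0.09. The first probe passed in 4 of 14 alternatives. It did so with a variance prior that follows the level (limma adjusted p = 0.0368), with a robust one as well (0.0303) and without either control. The second passed in 0 of 15 and the third in 1 of 14, the fit without control 1. Without a control the spread comes from the knock-down pair alone.

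Ccnd3, the gene of cyclin D3, stood at 5.12 and 4.49 in the controls, against 4.16 and 4.33 after knock-down at its 1 probe. Both knock-down values lay below both controls, but the controls themselves were 0.63 apart. The change was −0.56 ± 0.26 (limma adjusted p = 0.274, 95% interval −1.15 to 0.03). Without control 2 it was −0.88 (limma adjusted p = 0.0376) and without control 1 it was −0.24.

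Cdk6, a kinase that D cyclins activate, was read by 2 probes of 1 transcript (NM_009873). At its brighter probe it stood at 1.30 and 1.04 in the controls, against 0.43 and 0.38 after knock-down, a 1.70-fold lower value (log2 change −0.77 ± 0.23, limma adjusted p = 0.0845, 95% interval −1.28 to −0.26). The groups did not overlap, and the probe passed in 4 of 15 alternatives. It did so with a prior that follows the level (limma adjusted p = 0.0208) and with a robust one as well (0.0125). The others were the fits without either control, where the spread comes from the knock-down pair alone. With the slide as a block the limma adjusted p was 0.901. At its dim probe Cdk6 stood at −2.95 and −5.31 in the controls, against −6.23 and −7.45 after knock-down, where it was not well above background. This was the 1 member probe that fell (log2 change −2.71 ± 0.63, limma adjusted p = 0.0319). Set against the lowest signal that was well above background on each knock-down array, the controls were at least 3.31-fold higher. Control 1 lay 2.36 above control 2 at this probe, and the bound was 1.46-fold without control 1 and 7.49-fold without control 2. The change was −1.53 without control 1 (limma adjusted p = 0.102). The call also ended with quantile normalization (limma adjusted p = 0.105), with arrays scaled on their bright probes (0.0698), with no filter (0.392) and with a trended, robust prior (0.0960). The change was −0.23 (limma adjusted p = 0.709) under normexp background correction with an offset of 50 added to each signal.

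Cdk4, the other kinase of the D cyclins, stood at 5.20 and 4.63 in the controls, against 4.92 and 4.89 after knock-down, so that both knock-down values lay between the controls. The change was −0.01 ± 0.26 (limma adjusted p = 0.990), with a 95% interval of −0.58 to 0.56. Of the 3 Ccnd2 changes, this interval holds the smallest, −0.53. A shift of an array that is equal at all levels moves both kinases alike. Cdk6 at its brighter probe was therefore also expressed relative to Cdk4 within each array, a contrast chosen after the values were seen. The log2 difference was −3.90 and −3.59 in the controls, against −4.50 and −4.52 after knock-down, or 0.76 lower on the log2 scale, with no overlap. The size of this quantity on an array has no meaning of its own, since it sets 2 probes against each other, and only its shift between groups is read. An exact two-sided permutation test gave p = 0.333, the smallest that 2 samples against 2 can give. The contrast does not remove a shift that depends on level. Control 2 minus control 1 had a median of −0.16 for probes with a mean level of 0 to 4, where Cdk6 lies. It was −0.36 at 4 and above, where Cdk4 lies. As Cdk4 changed by −0.01, the contrast nearly restates the change of Cdk6.

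Cdk6 had the 1 called probe, tested only because it was well above background in the controls, and Cdk4 had the change nearest to 0. That call does not by itself set the kinases apart. The promoter windows of Cdk4 and Cdk6 are shown because both share their cyclins and gave these changes. They run from 250 bases before to 50 bases after a transcript start site (RefSeq, GRCm38.p6), 5′ to 3′, chr10:127063285-127063584 on the plus strand for Cdk4 and chr5:3343643-3343942 on the plus strand for Cdk6. The start site of the Cdk4 window is the outer edge of the gene in that annotation, and that of the Cdk6 window lies 2889 bases inside the gene. Capitals mark the E-box CACGTG, the motif bound by MYC and MAX, which reads the same on both strands.
Cdk4: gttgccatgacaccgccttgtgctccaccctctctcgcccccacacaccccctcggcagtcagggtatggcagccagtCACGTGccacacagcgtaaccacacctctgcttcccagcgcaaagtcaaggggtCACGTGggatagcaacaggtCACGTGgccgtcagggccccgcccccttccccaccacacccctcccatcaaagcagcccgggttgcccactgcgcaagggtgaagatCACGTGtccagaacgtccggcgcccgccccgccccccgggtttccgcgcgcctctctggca
Cdk6: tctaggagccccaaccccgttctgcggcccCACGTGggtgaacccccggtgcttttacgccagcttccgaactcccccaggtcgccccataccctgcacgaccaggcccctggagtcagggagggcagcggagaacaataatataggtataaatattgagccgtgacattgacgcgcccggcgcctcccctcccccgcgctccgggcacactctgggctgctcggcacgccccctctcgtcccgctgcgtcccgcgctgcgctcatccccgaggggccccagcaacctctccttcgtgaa
The Cdk4 window held 4 such motifs, beginning 172, 118, 98 and 11 bases before the start site of the window, and the Cdk6 window held 1, beginning 220 bases before its own. At least 1 was present in 7.15% of the 32851 windows of the table, and 4 or more in 8 windows. A match describes the letters only.

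**Figure D2:**
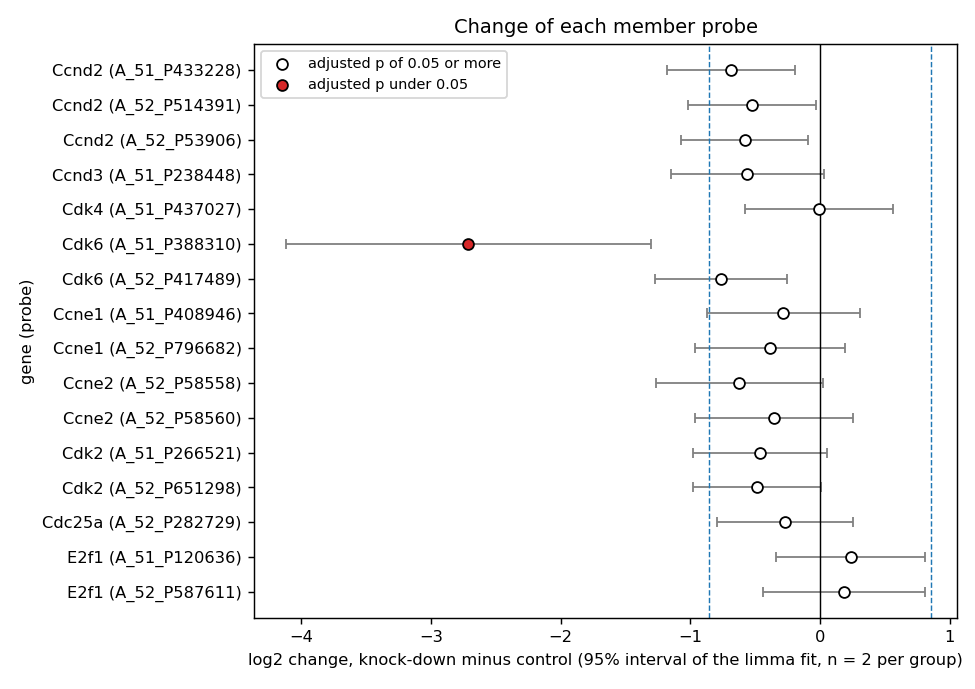
Log2 change of each member probe (knock-down minus control, horizontal axis) with the 95% interval of the limma fit, n = 2 per group. The filled point, the dim probe of Cdk6, is the 1 probe with an adjusted p under 0.05, and dashed lines mark 0.86, the smallest change called among all probes.

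Of the E cyclins, Ccne1 was read by 2 probes of 1 transcript. At the brighter it stood at 7.81 and 7.15 in the controls, against 7.25 and 7.15 after knock-down, so the groups overlapped (change −0.28 ± 0.27, limma adjusted p = 0.624). At the other it stood at 3.11 and 2.49 in the controls, against 2.42 and 2.41 after knock-down, a change of −0.38 ± 0.26 (limma adjusted p = 0.467). Control 1 was the high sample at both probes, by 0.66 and 0.61, and without it the changes were 0.05 and −0.08. Without control 2 they were −0.61 and −0.69, the latter with a limma adjusted p of 0.0428.

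Ccne2, the gene of cyclin E2, was read by 1 probe for each of its 2 transcripts. The probe of NM_001037134 stood at −4.28 and −3.51 in the controls, against −4.67 and −4.36 after knock-down, a change of −0.62 ± 0.29 (limma adjusted p = 0.267). The probe of NM_009830 stood at −3.16 and −2.55 in the controls, against −3.40 and −3.02 after knock-down, where the groups overlapped (change −0.35 ± 0.27, limma adjusted p = 0.531). Here control 2 was the high sample, by 0.78 and 0.61, the opposite of Ccne1. Both changes turned positive under normexp, to 0.18 and 0.10, and the first passed without control 1 at −1.01 (limma adjusted p = 0.0345).

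Cdk2, the kinase of the E cyclins, was read by 1 probe for each of 2 transcripts. The probe of NM_183417 stood at −1.86 and −1.98 in the controls, against −2.40 and −2.41 after knock-down, a 1.40-fold lower value (log2 change −0.48 ± 0.22, limma adjusted p = 0.261, 95% interval −0.98 to 0.01). The probe of NM_016756 stood at −3.60 and −3.50 in the controls, against −3.86 and −4.17 after knock-down, a change of −0.46 ± 0.23 (limma adjusted p = 0.304). The 2 probes gave like changes with no overlap between the groups, and neither passed in any of the 14 or 15 alternatives in which it was tested (lowest adjusted p = 0.0629).

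Cdc25a stood at −0.65 and −0.91 in the controls, against −0.94 and −1.17 after knock-down. The groups were separated by less than the distance within either of them (change −0.27 ± 0.23, limma adjusted p = 0.587, 95% interval −0.79 to 0.25). Its promoter window is shown because it was the 1 member window with a match to the E2F motif, searched as TTTGGCGC and TTTCGCGC on both strands. It lies at chr9:109875329-109875628 on the plus strand (RefSeq, GRCm38.p6), 5′ to 3′, with the match in capitals.
Cdc25a: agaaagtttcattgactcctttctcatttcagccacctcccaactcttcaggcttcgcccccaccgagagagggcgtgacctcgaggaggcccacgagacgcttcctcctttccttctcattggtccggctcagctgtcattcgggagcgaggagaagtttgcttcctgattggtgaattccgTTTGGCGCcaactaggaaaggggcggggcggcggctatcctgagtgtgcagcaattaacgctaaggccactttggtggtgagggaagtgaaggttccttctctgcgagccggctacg
The match began 67 bases before the start site of the window, which itself lies 61 bases inside the gene. One of these spellings was present in 0.813% of all windows. Of the 8 windows found for 7 member genes, the others, those of Ccnd3, Cdk4, Cdk6, Ccne1, Cdk2 and E2f1, held neither spelling, which says only that these letters are not there. The start site lies 466 bases inside the gene for the E2f1 window and 88416 for 1 of the 2 Ccnd3 windows. Like that of Cdk6, those windows do not reach the outer edge of the gene. The table used has no window for Ccnd1, Ccnd2 and Ccne2.

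E2f1 was the 1 member with positive changes. Its first probe, printed 10 times on each array, stood at 0.33 and −0.27 in the controls, against 0.27 and 0.28 after knock-down (change 0.24 ± 0.26, limma adjusted p = 0.677, 95% interval −0.34 to 0.81). The standard deviation between its 10 spots was 0.04 to 0.08 on the log2 scale, against a distance of 0.60 between the controls, so that distance exceeds the spread between spots within an array. Its second probe stood at 1.84 and 1.06 in the controls, against 1.65 and 1.62 after knock-down (change 0.19 ± 0.28, limma adjusted p = 0.775). At both probes the knock-down samples lay between the controls. The direction of E2f1 rested on which control was used: it was −0.06 and −0.20 without control 2, and 0.54 and 0.58 without control 1, where the second probe passed (limma adjusted p = 0.0456).

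The distance between the controls recurred through the set. Control 1 exceeded control 2 by 0.57 to 0.78 at 6 probes, those of Ccnd3, Cdk4, Ccne1 and E2f1, while the probes of Ccne2 went the other way and those of Ccnd2 and Cdk2 differed by at most 0.12. Over all probes tested the median of control 2 minus control 1 was −0.15, and it was −0.36 for the 2403 probes with a mean level of 4 or above. The knock-down samples differed by less than 0.1 at 10 of the 16 member probes. Leaving out either control moved the changes of Ccnd2 only between −0.73 and −0.50, those of Cdk2 between −0.55 and −0.42 and that of the brighter Cdk6 probe between −0.90 and −0.63. Leaving out a knock-down sample moved the dimmer Cdk2 probe further, to −0.62 or −0.31. A difference in the number of cells in each phase of the cycle and a difference in RNA per cell cannot be told apart in these bulk samples.

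**Figure D3:**
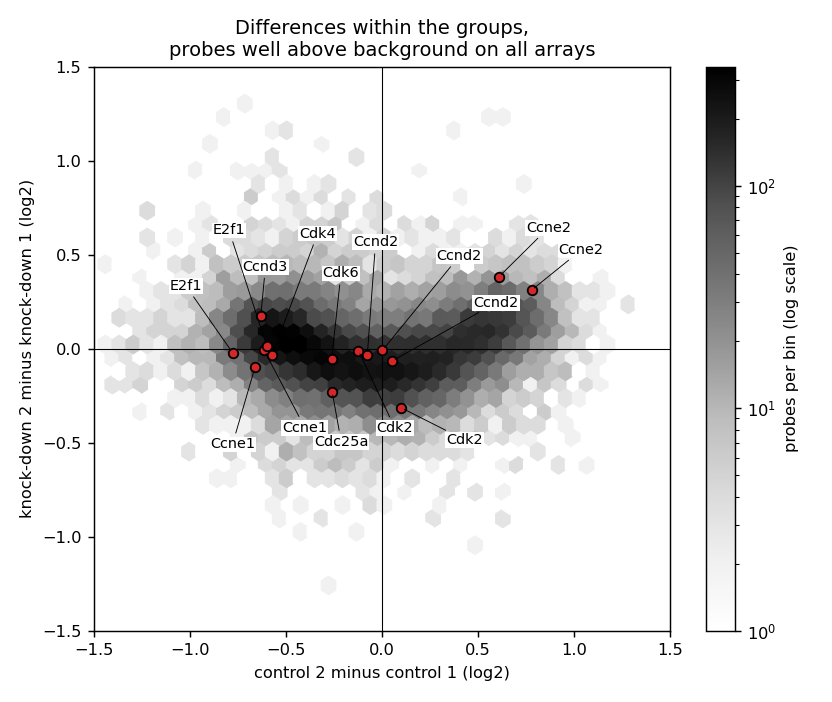
Difference between the controls (horizontal axis) and between the knock-down samples (vertical axis) in log2 units, for the 15 member probes well above background on all arrays (red) over the 23346 such probes (grey hexagons, log colour scale), of which 129 lie beyond the axes. E2f1, Ccne1, Ccnd3 and Cdk4 lie at −0.57 or less on the horizontal axis, Ccnd2 and Cdk2 near 0 and Ccne2 at 0.61 and 0.78.

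By Euclidean distance between values centred over the 4 arrays, the genes nearest to Cdk6 at its brighter probe were Rbp4 (distance 0.0251), Cds2 (0.0252) and Nol4l (0.0355), all lower in the knock-down samples by −0.75 to −0.78 and none of them past the threshold.

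The CDK inhibitors block these kinases, and the retinoblastoma family holds E2F factors in check. Of 11 tested probes for 10 CDK inhibitors and retinoblastoma family genes, 3 rose and 0 fell (3.73% and 2.47% of all probes), with a median change of 0.36. The inhibitors that did not pass were Cdkn1b (0.36), Cdkn2a (0.32), Cdkn1c (0.12), Cdkn2c (0.04) and Cdkn2d (0.03). Cdkn2b, the gene of the CDK4 and CDK6 inhibitor p15, stood at −0.73 and −0.85 in the controls, against 1.82 and 1.75 after knock-down, a rise of 2.57 ± 0.22 (limma adjusted p = 2.20e-04). Rb1, the gene of the retinoblastoma protein, stood at −0.91 and −0.31 in the controls, against 1.39 and 1.64 after knock-down, a rise of 2.12 ± 0.26 (limma adjusted p = 0.00123). The groups did not overlap for either gene. Cdkn1a, the gene of the CDK inhibitor p21, stood at 1.60 and 1.07 in the controls, against 2.33 and 2.32 after knock-down, a rise of 0.99 ± 0.25 (limma adjusted p = 0.0453) whose call ended within the shared slide (0.443), without knock-down 1 (0.345) and with no filter (0.378). The retinoblastoma relatives did not pass: Rbl2 had changes of 1.07 and 0.86 (limma adjusted p = 0.0564 and 0.114) and Rbl1 one of −0.34 (0.560). The Rbl2 probe at 1.07 was well above background in 1 control and both knock-down samples. It was thus tested only through the group where it was higher. Both Rbl2 probes passed with a trended, robust prior (limma adjusted p = 0.0307 and 0.0191) and without control 2 (0.0392 and 0.0222), and their changes were 0.43 and 0.39 under normexp.

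The other lists of the pathway held 1 call among 87 tested probes. None of 11 probes for 9 other E2F and DP factors passed (median −0.18), and E2f3 had the lowest adjusted p among them with a change of −0.50 ± 0.22 (limma adjusted p = 0.251). Of 20 probes for 12 other CDK regulators, Ccna1, the gene of cyclin A1, rose by 0.98 ± 0.25 (limma adjusted p = 0.0485), a call that ended within the shared slide (0.524), without knock-down 1 (0.297), with no filter (0.388), with quantile normalization (0.0606) and with the scanner signals (0.0520), and the list's median was −0.21. None of 20 probes for 12 genes of the turnover of G1 cyclins and CDC25A passed (median −0.20), with Cul1 at −0.68 ± 0.23 (limma adjusted p = 0.131) the nearest to it and its 2 other probes at smaller changes. Without overlap, 7 of these 20 lay lower and 3 higher, where 30.6% and 20.8% of all probes did. Among the 3 were both Fbxw7 probes, with changes of 0.59 and 0.66 (limma adjusted p = 0.262 and 0.209). None of 36 probes for 32 E2F target genes of S phase entry passed (median −0.14), and Cdc6, which loads the replicative helicase, had the lowest adjusted p with −0.62 ± 0.22 (limma adjusted p = 0.150) at 1 of its 2 probes and −0.27 at the other. For comparison the median of the 16 member probes was −0.47 and that of all probes −0.06.

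**Figure D4:**
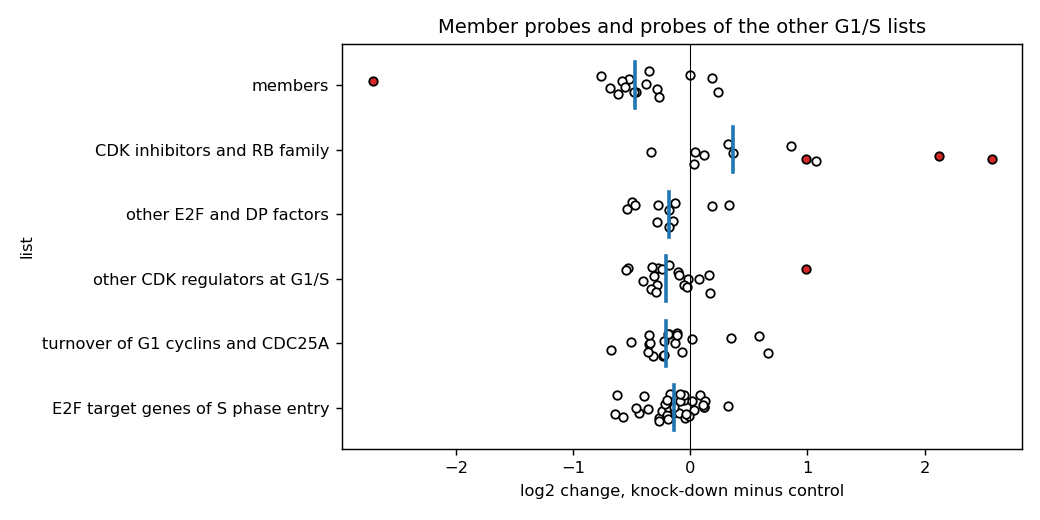
Log2 change of each tested probe (points, knock-down minus control) in the member set and in 5 other lists of the G1/S pathway, with vertical jitter for display, the list's median as a blue bar and called probes filled. The 3 filled points of the CDK inhibitor and retinoblastoma list are Cdkn2b, Rb1 and Cdkn1a, and the other lists hold 1, Ccna1.

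Markers of the labelled cell type were present: all 11 probes of 9 embryonic stem cell genes were well above background on each array, and 0 of 11 passed in limma (median change −0.08). Their summed level on the log2 scale was 10.1 to 10.4 in the controls and 10.1 to 10.5 after knock-down, but Dppa5a alone made up 62% to 75.4% of it. At 5 of the 11 probes both knock-down values lay below both controls, which held for 30.6% of all probes, and at 2 above (20.8% of all probes). The 5 were those of Nanog (−0.82 ± 0.22, limma adjusted p = 0.0605), Zfp42 (−0.61 and −0.54), Tdgf1 (−0.44) and Esrrb (−0.34). The 2 above were those of Sox2 (0.29) and Klf4 (0.03). The groups overlapped for Pou5f1 (−0.06), Utf1 (0.08) and both Dppa5a probes (−0.08 and 0.24). Nanog passed in 6 of 15 alternatives. It did so under normexp (limma adjusted p = 0.0185), over probes above background on all arrays (0.0338) and with a trended prior (0.0138). The others were a robust prior as well (0.00432) and the fits without either control.

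Of 6 primed epiblast probes, 4 rose and 1 fell, where 3.73% and 2.47% of all probes did. In the fit over probes well above background on all arrays, 3 of 5 rose and 1 fell. Otx2, Pou3f1 and Sall2 rose by 1.69, 1.53 and 1.65, and among the alternatives their calls ended only with no filter (limma adjusted p = 0.127, 0.186 and 0.149). Fgf5 rose by 1.31 (limma adjusted p = 0.0113), a call that ended under normexp (0.33, adjusted p = 0.540), within the shared slide (0.150), without knock-down 1 (0.0514) and with no filter (0.237). Its probe was well above background in 1 control and both knock-down samples, so it entered the test through the group where it was higher. Zic2 fell by 2.21 (limma adjusted p = 0.0367), a call that ended with quantile normalization (0.122), with scaling on bright probes (0.0932), with a trended, robust prior (0.382) and with no filter (0.403), and its change ranged from −3.29 to −0.82. Dnmt3b went the other way without passing, from 4.63 and 4.39 in the controls to 4.24 and 4.09 after knock-down. Its change was −0.35 ± 0.23 (limma adjusted p = 0.454), with no overlap between the groups. The summed level of the list was 4.96 to 5.26 in the controls and 5.68 to 5.69 after knock-down. Pou3f1 alone made up 28.3% to 60.3% of it, so the sum does not describe the whole list.

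In the trophectoderm, fibroblast and neural lists 1 bright gene made up most of the summed level. That of 7 trophectoderm probes was 4.09 to 4.41 in the controls and 4.70 to 4.89 after knock-down. Tfap2c made up 64.9% to 82.3% of it. Elf5 fell, and Eomes and both Krt8 probes had negative changes that did not pass. Cdx2, Hand1 and Tfap2c lay higher in the knock-down samples by 0.83, 0.71 and 0.82, with no overlap, and did not pass. The median change was −0.22 over the 7 probes and 0.20 with 1 probe per gene. The summed level of 12 fibroblast probes was 2.24 to 2.85 and 1.84 to 1.96, of which Thy1 made up 83.8% to 92.5%. One of its 2 probes fell, while the median of the 5 tested probes was 0.22, with Col1a1, Col1a2 and S100a4 at positive changes that did not pass. These 5 were well above background on all arrays, and 7 fibroblast probes were not tested, among them those of Col3a1 and Dcn, which were not well above background on any array. The summed level of 14 primitive endoderm probes was −0.82 to −0.52 and −1.35 to −1.33, where Sox7 fell, 1 Sox17 probe rose and the median of 8 tested probes was 0.01. The brightest gene of that list, Foxa2, made up 16.2% to 23.2% of the sum. The sum also includes probes not well above background on any array, such as 1 of Gata4 and those of Pdgfra. The summed levels of the 8 neural and the 7 primitive streak and mesoderm probes overlapped between the groups, with 0 of 5 and 1 of 6 tested probes called in limma, the latter Kdr, which rose. The called Sox17 probe was well above background in the knock-down samples only. That of Elf5 was so in both controls and 1 knock-down sample. Each thus entered the test through the group where it was higher. Every one of the calls of Elf5, Thy1, Sox7, Sox17 and Kdr ended with no filter. Those of Elf5, Thy1 and Kdr also ended within the shared slide, and those of Elf5, Sox7 and Sox17 under normexp, where Elf5 turned to 0.13. The call of Elf5 also ended with quantile normalization, with scaling on bright probes and without either control, and that of Kdr without knock-down 1. The part of these shifts in the values of the members was not tested.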

How the data were processed

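The 4 samples were hybridised to 1-colour Agilent arrays, 1 array each. Per the file headers, Agilent Feature Extraction 10.7.3.1 quantified the images, and the deposited intensity of a spot is background-subtracted and detrended, not scaled between arrays. The authors' deposited table holds log2 values. On each array 99.8% of its entries lay within 0.01 of the scanner's log2 signal minus 1 constant, and its column medians were −3.85, −3.98, −3.94 and −3.91 (controls 1 and 2, knock-down 1 and 2). Its scale and direction are therefore those of the signal, shifted to the 75th percentile with no centring of probes. For that step the software was not given in the sources used here.

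Probes were named by transcript accession through RefSeq (GRCm38.p6), which named 24375 of 41174 probes. The array design uses another build, so probes have no coordinates here, and those of promoter windows are of GRCm38.p6. A probe was tested where a share of at least 0.5 of its spots were well above background on both arrays of 1 group, and 50 probes with all spots flagged on an array were left out. Groups were compared per probe with limma 3.58.1 (lmFit, eBayes, two-sided) in R 4.3.3, adjusted over 25078 probes, and the fit was tested on simulated data. Precision is limited by the number of arrays. The scanner files carry median but no mean spot signals, so normexp (offset 50) used the medians.

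The members and lists were chosen with earlier results of these data known. Named genes are all members, Fbl, called genes of each pathway list or its gene with the lowest adjusted p, Cdkn1a, Rb1 and Rbl1, and the 3 nearest patterns. Rbl2, Fbxw7, the CDK inhibitors that did not pass and all marker genes were named after their values were seen. Alternatives were the scanner signals, normexp, quantile normalization, another percentile, other filters and priors, the slide or replicate number as a block, 1 probe per gene and leaving out each array.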

Additional observations from a re-analysis of the deposited data

How the results depend on the processing

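With 2 arrays per group, 1 array can decide a value. The member probes that fell numbered 1. They numbered 0 with normexp, with quantile normalization, with the 75th percentile over bright probes, with no filter, with 1 probe per gene and over probes well above background on all arrays, where the last 2 leave the dim Cdk6 probe out of the test. They numbered 3 with trend and 2 with trend and robust. Leaving out 1 array gave 1 to 5 that fell and 0 to 1 that rose, the most without a control, where the spread comes from the knock-down pair alone. Over all probes 936 rose and 620 fell. The falls numbered 408 with quantile normalization, 1006 with trend and 1012 with the replicate block, and 1457 rose and 1195 fell with trend and robust. The slide as a block, which leaves out knock-down 2, gave 462 and 224. Leaving out 1 array gave 462 to 3020 rises and 224 to 2378 falls. With no filter limma called 0 and 0, with 3878 probes at an unadjusted p under 0.05, and Fbl had an adjusted p of 0.0997.

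Of the changes that turned sign, that of Elf5 (0.13 under normexp) was of a called probe and the others of probes that did not pass in the test reported above. Cdk4 went to 0.096 with quantile normalization, 0.044 over bright probes and 0.0093 with the slide as a block, and to −0.29 to 0.28 when 1 array was left out. Ccne2 went to 0.18 and 0.098 and Rbl1 to 0.0051 under normexp. When 1 array was left out, the brighter Ccne1 probe spanned −0.61 to 0.049, the E2f1 probes −0.061 to 0.54 and −0.20 to 0.58, Rbl1 −0.70 to 0.024 and the other probes of Cul1 −0.52 to 0.077 and −0.44 to 0.073. Of 232 member values under the alternatives, 203 kept direction and side of the threshold, 13 passed anew, 6 no longer passed and 10 turned sign. The scanner signals gave the same calls for members. In the fits with normexp, a block or without a knock-down array every probe had the same variance, so passing there depended on size alone. Replicate numbers are shared by the groups, and deviations of same-numbered samples correlated at 0.023 over probes. That gives no sign of pairing but cannot exclude it, since it rests on 1 difference per group. The replicate block kept the member counts of 1 and 0. It called both Rbl2 probes (limma adjusted p = 0.00584 and 0.0453).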
